A study of Mus musculus with 29 samples.

Results

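Close pairs of polyadenylation (pA) sites are the 2 most used cleavage sites of a gene when they lie under 200 nt apart on the transcript. They were chosen from a table of read counts per pA site in C2C12 cells, a mouse myoblast line that proliferates in rich serum and forms muscle-like cells after serum is lowered. Positions listed under more than 1 gene symbol were dropped, each gene kept the chromosome and strand with most of its reads, and its 2 sites with most reads over all 26 libraries were taken in transcript order. A pair entered when it held at least 260 reads, at least 5% of them at its rarer site. Of 5250 such pairs, 1201 (22.9%) were under 200 nt apart. The members were thus chosen on distance, total reads and the share of the rarer site pooled over every library, so these values are given as a description. The direction of a difference between libraries was not used by the rule. A pair whose rarer site was used mainly in 1 group could still pass the 5% limit through that group.

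The 3' end of nearly every mRNA is made by cutting the transcript a short way downstream of a hexamer signal and adding a poly(A) tail. The machinery comprises the cleavage and polyadenylation specificity factor (CPSF), the cleavage stimulation factor (CstF), cleavage factors I and II, poly(A) polymerase and the nuclear poly(A)-binding protein. Many genes hold several such signals. Use of a signal nearer the stop codon (proximal) shortens the 3' untranslated region, and use of a later one (distal) lengthens it, which can add or remove binding sites for microRNAs and RNA-binding proteins. When the signals lie close together, the alternative transcripts differ by only a short stretch of sequence. The share of a pair's reads at its distal site (the distal share) is the measure used throughout.

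All libraries came from C2C12 cells in DMEM with penicillin and streptomycin, and all were made by 3'READS+, which sequences the transcript end next to the tail. The 16 gradient libraries form 8 groups of 2 replicates each, crossing the state of the cells (proliferating, differentiating) with the fraction (cytosol, or membrane, which holds transcripts bound to the endoplasmic reticulum) and the gradient part (polysomes, with several ribosomes per mRNA, or monosomes, with 1). The proliferating libraries were labelled as grown in 10% fetal bovine serum and the differentiating polysome libraries as kept in 2% horse serum. The labels of the differentiating monosome libraries give 10% fetal bovine serum, which does not match their state. In 8 further libraries, proliferating cells either had no treatment or got 100 µg/ml of puromycin, a drug that makes ribosomes let go of their unfinished chains; exposures were 0, 30 and 60 min, and every exposure gave a cytosol and a membrane library. RNA of the gradient libraries was extracted with phenol and chloroform, and that of the others with TRIzol. The last 2 libraries, 1 whole cytosol and 1 whole membrane fraction of proliferating cells, were not tested. Whether replicates are separate cultures is not in the labels, and p-values therefore cover the spread among these libraries, which may be technical.

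Each gradient library held 2987706 to 8289093 reads and each puromycin library 5533678 to 11721948. Of 11 genes of muscle differentiation listed as markers, 10 were in the table, and all 10 were higher in every differentiating library than in every proliferating one. Their summed level was 35.3 to 263 CPM (counts scaled to the total reads of the library) in the proliferating libraries and 2193 to 14482 CPM in the differentiating ones, the monosome libraries included. The 4 myoblast markers, all expressed in both states, summed to 295 to 1065 and 1206 to 2077 CPM. Of these only Des was higher in every differentiating library (median 230 CPM in proliferating and 957 CPM in differentiating libraries). The ranges of Myod1, Myf5 and Cdh15 overlapped, and the median of Myf5 was lower in differentiating libraries (16.8 and 7.85 CPM). Of 5 markers of other cell types, 3 were in the table and summed to at most 0.486 CPM in proliferating and 1.20 CPM in differentiating libraries.

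The 1201 close pairs lay on 20 chromosomes, 609 on the plus strand and 592 on the minus strand. Distances ran from 25 to 199 nt with a median of 82 nt and quartiles of 48 and 130 nt. In 312 pairs the sites were under 50 nt apart, and in 98 under 30 nt. Whether the 2 sites of a pair have separate signals was not tested, as no sequence was used. The pairs held 7.75% of all reads of the table. A pair had a median of 2567 reads over the 26 libraries (quartiles 892 and 8027), and 764 pairs averaged at least 50 reads per gradient library. By gene type in RefSeq's table, 1186 of the 1199 matched genes were protein coding, 11 made long non-coding RNAs and 2 were transcribed pseudogenes. Close pairs were often only some of a gene's sites: the median gene had 6, and 121 genes had exactly 2. The pair nevertheless held a median of 93.6% of its gene's reads.

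Neither site of a close pair was favoured on balance. The distal site had more reads in 624 pairs (52.0%), the proximal site in 576, and 1 pair was equal. The distal share had quartiles of 23.9% and 80.9% around a median of 52.4%. The other pairs leaned to the distal site, which had more reads in 57.4% of the 2503 pairs at 200 to under 2000 nt, 63.2% of the 963 at 2000 to 10000 nt and 75.3% of the 583 farther apart. Within the close pairs that share was 47.1% at 25 to 49 nt, 53.1% at 50 to 99 nt, 57.3% at 100 to 149 nt and 50.0% at 150 to 199 nt.

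The limits of the rule fall inside a continuous range. The sites of Adamts1 were 200 nt apart with 458 reads, just outside, and those of AU022252 199 nt apart with 9633 reads, just inside. Ufsp2 entered with 260 reads, and Zcchc2 missed with 257. The rarer site of Ccdc62 held 5.01% of its pair's reads and that of Rapgef3 4.99%.

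The pairs with most reads give a picture of the members at depths where counting error is small. Eef2, the elongation factor that moves the ribosome along the mRNA, had 657320 reads at 2 sites 143 nt apart (chromosome 10, plus strand, 80645100 and 80645243, mm9). Its distal share was 72.6% over all libraries and 64.8% to 83.1% across the gradient libraries. Lysosomal genes leaned either way: Ctsb (cathepsin B, 84 nt) had a distal share of 90.9% and stayed between 88.6% and 94.7% in all 26 libraries, whereas Npc2, a cholesterol carrier of the lysosome (87 nt), had 25.2% and stayed between 18.9% and 30.2%. Mthfd2, a mitochondrial enzyme of folate metabolism, used its distal site, 50 nt on, for 94.9% of reads. Gpc1, a cell surface heparan sulfate proteoglycan, used its distal site, 28 nt on, for 10.8%, and Gpi1, a glycolytic isomerase with sites 30 nt apart, for 11.6%. The distal share was 15.0% for Cnbp, a nucleic acid-binding protein (94 nt), 26.2% for Tceb2, an elongin subunit (67 nt), 16.3% for Mrpl12, a mitochondrial ribosomal protein (58 nt), and 8.51% for Rpl37a, a protein of the large ribosomal subunit (140 nt). Across the gradient libraries the ranges were 92.6% to 96.4% for Mthfd2, 6.21% to 12.8% for Gpc1, 7.42% to 15.1% for Gpi1, 20.5% to 32.9% for Tceb2 and 14.0% to 19.4% for Mrpl12, so each kept its major site.

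Library by library, the median distal share of close pairs moved little. It was 51.7% to 53.3% in the 4 proliferating cytosol libraries and 52.1% to 56.1% in the 4 proliferating membrane libraries. It was 52.9% to 55.4% in differentiating cytosol and 52.0% to 57.3% in differentiating membrane, so all 4 ranges overlapped. The pairs 200 nt or more apart had medians of 57.1% to 61.1%, 63.1% to 65.3%, 58.3% to 66.7% and 63.6% to 70.7% in the same order, with no overlap between the fractions of the proliferating cells. In the puromycin set the medians of close pairs were 48.7% to 50.0% in cytosol and 50.0% to 50.2% in membrane, against 54.5% to 58.1% and 61.5% to 63.0% for the other pairs.

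**Figure D1:**
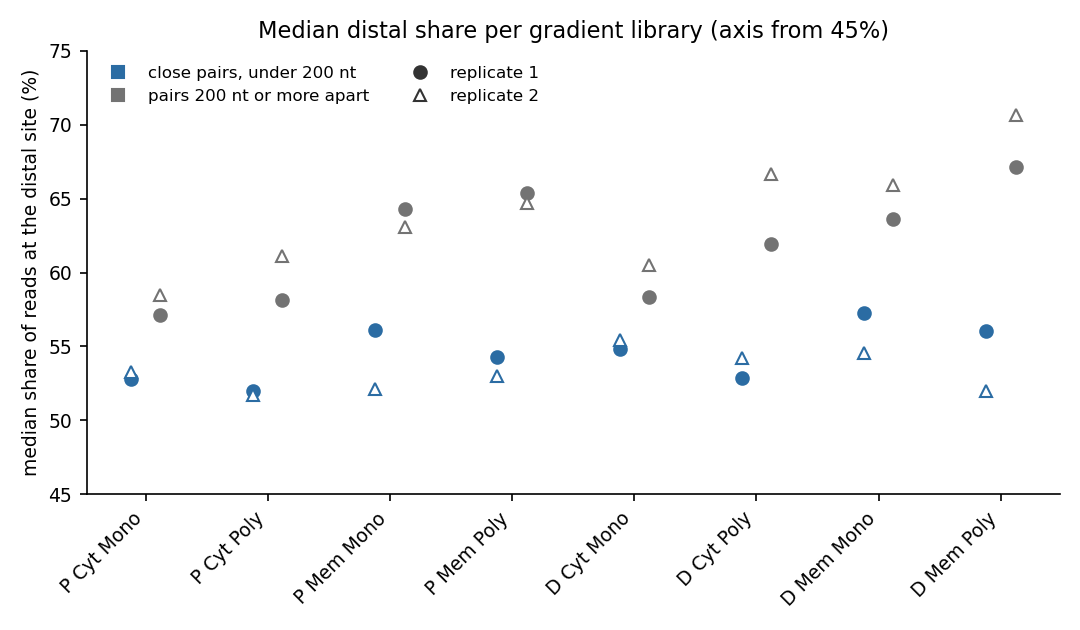
Median distal share (percent) of close pairs and of pairs 200 nt or more apart in each library, over pairs with at least 10 reads there; each point is 1 library, grouped by state and fraction. The close pairs stay between 51.7% and 57.3% in all 16 gradient libraries, and the wider pairs span 57.1% to 70.7%.

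Few close pairs were called between states, fractions or gradient parts when replicates were compared as independent samples. Calls below are at an adjusted p under 0.05 in edgeR (quasi-likelihood F test), adjusted after Benjamini and Hochberg over all 5250 pairs. Between states 2 close pairs had a higher distal share in differentiating cells and 2 a lower one, 0.333% of the close pairs, while 2.4% of all pairs were called (1.66% higher, 0.743% lower). Between fractions 4 were higher and 4 lower in membrane, 0.666%, against 2.23% of all pairs (1.9% higher, 0.324% lower). Between gradient parts 3 were lower and 0 higher in polysomes, 0.25%, against 2.27% of all pairs (1.7% higher, 0.571% lower). For part, 83 close pairs (6.91%, against 12.6% of all pairs) had an unadjusted p under 0.05 in either direction, and DESeq2 called 5. The shares called rose with distance: for fraction 0.999% at 200 to under 2000 nt, 4.26% at 2000 to 10000 nt and 7.38% beyond. For state they were 1.20%, 5.50% and 6.69%, and for part 1.12%, 3.74% and 8.92%. These shares were not tested against each other.

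The median change of a close pair was near 0 in each comparison. On the log2 scale of the distal-to-proximal ratio it was 0.08 for differentiating against proliferating, 0.00 for membrane against cytosol and −0.04 for polysomes against monosomes. The medians over all pairs were 0.15, 0.16 and 0.07, and over pairs beyond 10000 nt 0.33, 0.56 and 0.17. Centring the counts by TMM (trimmed mean of M-values) scaling in place of total reads moved the median of all pairs by over 0.1 for fraction, to −0.03, and part, to −0.15, and the close pairs' medians to −0.19 and −0.25. With that scaling the calls among close pairs were 1 higher and 8 lower for fraction and 0 higher and 6 lower for part. The balance between higher and lower calls among close pairs therefore changes with the scaling. The shares of all pairs called with TMM scaling are not given here.

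Same-numbered replicates deviated together, so a fit with the replicate number as a block was also read. It called 46 close pairs higher and 16 lower in differentiating cells (5.16% of them; of all pairs 11.4%, 8.02% higher and 3.37% lower), 22 higher and 19 lower in membrane (3.41%; of all pairs 8.99%, 7.49% higher and 1.5% lower) and 18 higher and 27 lower in polysomes (3.75%; of all pairs 8.88%, 6.0% higher and 2.88% lower). All 4, 8 and 3 pairs called without the block were among these with the same sign. That block has a term per state; a single replicate term over both states gave 32 higher and 13 lower by state (3.75%; of all pairs 9.83%, 6.93% higher and 2.9% lower). The shares of pairs called at 200 to under 2000 nt, 2000 to 10000 nt and beyond were then 9.83%, 17.7% and 20.6% for state, 7.11%, 15.2% and 18.4% for fraction, and 7.83%, 11.9% and 18.9% for part.

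**Figure D2:**
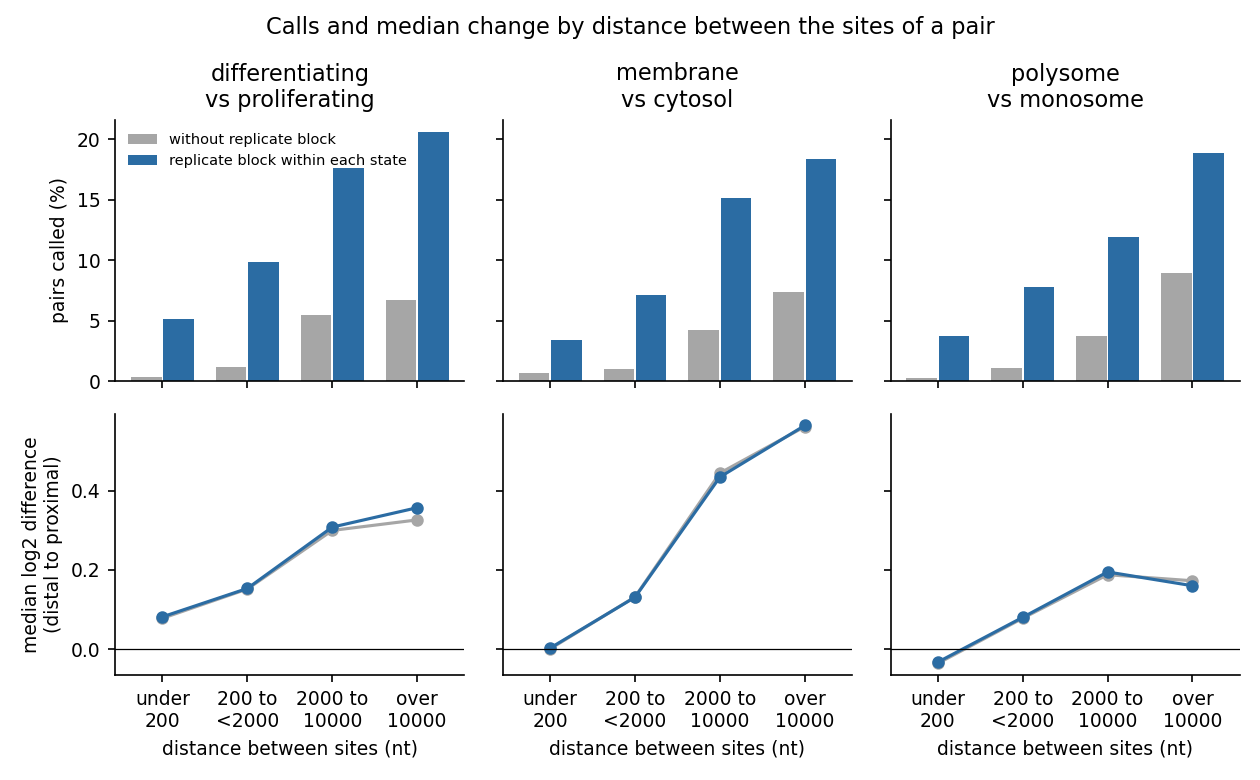
Share of pairs called (percent) and median log2 difference of the distal-to-proximal ratio by distance between the 2 sites, for state, fraction and part. Values are given without the replicate block and with it. Close pairs have the lowest share called in every comparison, from 0.25% for part without the block to 5.16% for state with it.

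Membrane and cytosol differed at Id1, an inhibitor of DNA binding that holds back the muscle-forming transcription factors. Its sites were 116 nt apart (chromosome 2, plus strand, 152563030 and 152563146). The distal share was 88.7% to 97.4% (median 94.6%) in the 8 cytosol libraries and 94.6% to 99.3% (median 97.6%) in the 8 membrane libraries. The ranges overlapped, but membrane was higher in 8 of 8 pairs of libraries matched for state, part and replicate number. The log2 difference was 1.47 ± 0.28 (SE; edgeR adjusted p = 0.00451). Polysomes were lower than monosomes at the same gene, with 88.7% to 97.9% (median 94.6%) against 94.5% to 99.3% (median 97.4%) and a log2 difference of −1.25 ± 0.27 (edgeR adjusted p = 0.0123). Of the pooled gradient reads, 7.09% were proximal in cytosol and 2.19% in membrane. By group mean the distal share was 90.1% in proliferating and 93.8% in differentiating cytosol polysomes, and at least 95.3% in every other group. Only cytosol polysomes were thus over the limit for the rarer site by which pairs were chosen. The calls of Id1 by fraction and part are therefore not independent of that choice.

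Pck2, the mitochondrial phosphoenolpyruvate carboxykinase, changed with both fraction and state. Its sites on chromosome 14 (plus strand, 56167709 and 56167772) were 63 nt apart and the proximal one was the major site. The distal share was 5.71% to 20.9% (median 13.6%) in cytosol and 15.0% to 30.0% (median 23.2%) in membrane, higher in 8 of 8 matched pairs of libraries (log2 1.02 ± 0.26, edgeR adjusted p = 0.039). It was 15.1% to 30.0% (median 22.5%) in proliferating and 5.71% to 22.4% (median 13.6%) in differentiating libraries, lower in 8 of 8 (log2 −1.04 ± 0.26, edgeR adjusted p = 0.035). Both calls lay near the threshold: leaving out 1 library ended the fraction call in 14 of 16 cases (adjusted p at most 0.112) and the state call in 12 of 16 (at most 0.103), though the direction held, and both were lost without a count filter and without the differentiating monosome libraries. The fraction call was also lost with TMM scaling. In Mpnd, whose sites were 97 nt apart (chromosome 17, plus strand, 56156085 and 56156182), the distal share was 3.33% to 8.35% (median 4.86%) in cytosol and 6.64% to 14.5% (median 8.84%) in membrane. Membrane was again higher in 8 of 8 matched pairs (log2 0.78 ± 0.19, edgeR adjusted p = 0.0365), a call lost with TMM scaling (adjusted p = 0.164), without a count filter, without the differentiating monosome libraries and when any of 14 of the 16 libraries was left out (at most 0.104 in these last).

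The proximal site was used more in membrane than in cytosol in Pwp1, which encodes a WD-repeat protein of ribosome production. The distal site stayed the major one in both fractions. At its sites, 166 nt apart (chromosome 10, plus strand, 85351678 and 85351844), the distal share was 79.8% to 91.4% (median 84.7%) in cytosol and 63.6% to 80.9% (median 75.1%) in membrane, lower in 8 of 8 matched pairs. The log2 difference was −0.97 ± 0.25 (edgeR adjusted p = 0.042). That call was lost when any 1 library but proliferating membrane monosome replicate 2 was left out (adjusted p at most 0.123), without a count filter and without the differentiating monosome libraries. Sptlc2, a subunit of the endoplasmic reticulum enzyme that starts sphingolipid synthesis, had few reads in cytosol. Its 82 nt pair (chromosome 12, minus strand, 88650670 and 88650588) had 2 proximal reads of 108 over the 8 cytosol libraries (1.85%, 95% exact interval 0.225% to 6.53%) and 179 of 1222 over the 8 membrane libraries (14.6%, 12.7% to 16.8%). The call (edgeR adjusted p = 0.0173) rests on cytosol libraries of which 6 had no proximal read, so the fitted fold change depends on the prior count and is not given. In the pooled gradient libraries, only membrane was over the limit for the rarer site by which pairs were chosen. The call of Sptlc2 is therefore not independent of that choice. The other 2 called pairs fell outside the rule for named genes and are named after their values were seen: 1700088E04Rik, lower in membrane, and Hspbap1, higher in membrane at a mean of only 29.1 reads per library.

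Rps12, a protein of the small ribosomal subunit, was called by both state and fraction. Its sites were 48 nt apart (chromosome 10, minus strand, 23505002 and 23504954), and the proximal one was used mainly in the membrane fraction of proliferating cells. There the distal share was 78.5% and 78.1% in the 2 monosome libraries and 84.9% and 84.9% in the 2 polysome libraries. Proximal reads were 406 of 2018 in those 4 libraries (20.1%, 95% exact interval 18.4% to 21.9%), against 71 of 4592 in proliferating cytosol (1.55%, 1.21% to 1.95%). In differentiating cells they were 22 of 3295 in cytosol (0.668%, 0.419% to 1.01%) and 26 of 2303 in membrane (1.13%, 0.739% to 1.65%). The differentiating cytosol polysome libraries had 0 proximal reads of 373 and of 219, which allows shares of up to 0.804% and 1.37%. Of the groups pooled above, only proliferating membrane was over the limit for the rarer site by which pairs were chosen. The choice of Rps12 thus depended partly on the group that differed, and its calls by state and fraction are not independent of that choice.

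Membrane differed from cytosol at Rps12 in proliferating cells (log2 −4.26 ± 0.44, edgeR adjusted p = 1.37e-05). In differentiating cells 2 of the cytosol libraries had no proximal read, so the fitted fold change depends on the prior count and is not given. The pooled intervals of cytosol and membrane overlapped there. The edgeR adjusted p was 0.325 (0.0155 with the replicate block) and rests on the same libraries. The difference between those 2 effects did not pass (edgeR adjusted p = 1.0). The state comparison passed over all libraries (edgeR adjusted p = 0.00025) but not without the differentiating monosome libraries (0.108). Many ribosomal protein genes have nearly identical pseudogene copies, and how reads that fit several places were counted is not given in the sources used here, so the counts of Rps12 and of the other ribosomal protein genes are uncertain.

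Besides Pck2 and Rps12, the pair that passed the rule between states was Rps27l, a relative of a small-subunit ribosomal protein. Its sites were 43 nt apart (chromosome 9, plus strand, 66797275 and 66797318). The distal share was 24.5% to 40.6% (median 32.8%) in proliferating and 32.5% to 56.8% (median 44.4%) in differentiating libraries. It was higher in 8 of 8 matched pairs (log2 0.69 ± 0.18, edgeR adjusted p = 0.0489; 2.29e-06 with the replicate block). Without the block the call was lost when any of 13 of the 16 libraries was left out, with an adjusted p of at most 0.129, with TMM scaling, without a count filter and without the differentiating monosome libraries. The last of the 4 state calls, Tmem38b, averaged 49.7 reads per library, just under the limit of 50 for named genes, and is named after its value was seen. Rpl37a rose by a log2 of 0.60 with an edgeR adjusted p of 0.0561, and of 3.69e-06 with the replicate block (log2 0.60 ± 0.11).

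Between gradient parts, Calm3 and Wbp2 joined Id1. Calm3, a calmodulin gene, had sites 95 nt apart (chromosome 7, minus strand, 17500823 and 17500728). Its distal share was 76.2% to 89.8% (median 81.2%) in monosomes and 68.5% to 76.9% (median 74.7%) in polysomes, higher in polysomes in 1 of 8 matched pairs (log2 −0.78 ± 0.20, edgeR adjusted p = 0.0432). Without the differentiating monosome libraries the log2 difference was −0.19 (adjusted p = 0.981), and the call was also lost in 15 of 16 cases of leaving out 1 library (at most 0.125) and without a count filter. Wbp2, a WW-domain-binding protein, had sites 44 nt apart (chromosome 11, minus strand, 115939931 and 115939887). Its distal share was 88.3% to 97.0% (median 92.8%) in monosomes and 80.7% to 92.5% (median 86.4%) in polysomes, lower in 8 of 8 (log2 −1.19 ± 0.30, edgeR adjusted p = 0.044; 1.41e-14 with the block). Without the block the call was lost in 12 of 16 cases of leaving out 1 library (adjusted p at most 0.123), among pairs of at least 1000 reads and without the differentiating monosome libraries, where it was 0.612. The calls of Id1 in both comparisons and of Rps12 by state and fraction held whichever 1 library was left out.

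**Figure D3:**
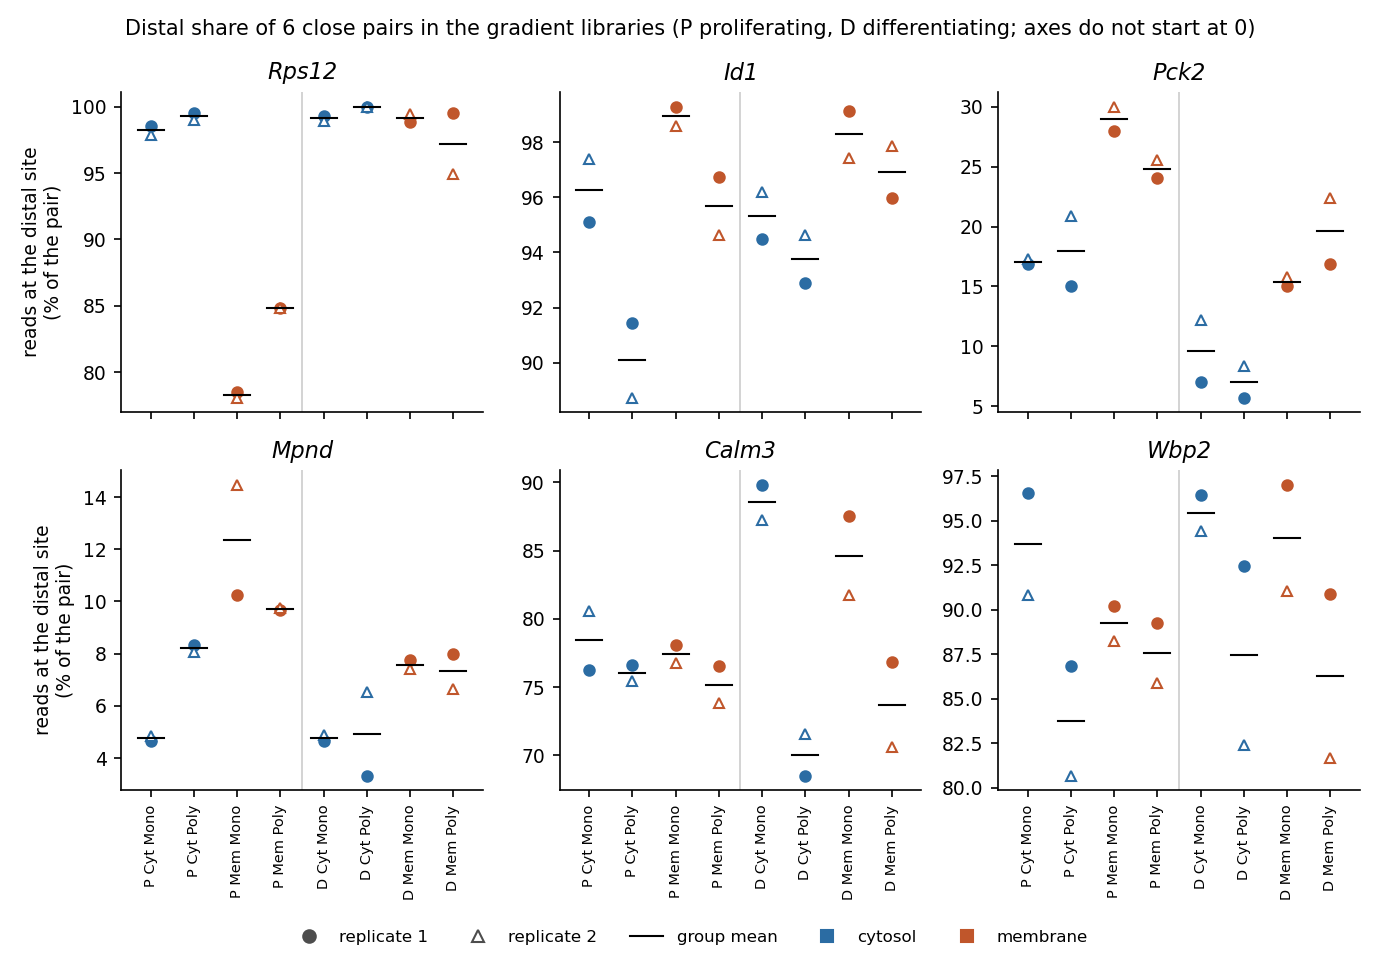
Distal share (percent) in each of the 16 gradient libraries for Rps12, Id1, Pck2, Mpnd, Calm3 and Wbp2. Each point is 1 library. Id1, Pck2 and Mpnd are higher in membrane, and the 4 proliferating membrane libraries of Rps12 (78.1% to 84.9%) stand below its other libraries.

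No close pair was called for a difference of 1 effect across another factor by edgeR's test without the block. The counts at an unadjusted p under 0.05 were 29 for state by fraction, 31 for state by part and 39 for fraction by part. These were 2.41%, 2.58% and 3.25% of the close pairs, against 3.2%, 3.96% and 4.61% of all pairs. Over all pairs 0.0%, 0.0% and 0.0762% were called. DESeq2 also called 0 close pairs for each of the 3 terms. With the replicate block 3 close pairs passed: Rpl37a for state by part, and Il10rb and Rdbp for fraction by part, where 0.267% and 0.8% of all pairs were called (0.114% for state by fraction). In Rpl37a the 4 differentiating polysome libraries had distal shares of 15.2% to 17.1%, and the 4 proliferating polysome libraries 6.1% to 10.4%.

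With the replicate block, the additional calls took in genes of several kinds, named here after their values were seen; none of those below passed without the block. In polysomes the distal share of Eef2 was higher (log2 0.43 ± 0.10, edgeR adjusted p = 0.000343), as was that of Mkrn2, a ubiquitin ligase (1.09, edgeR adjusted p = 0.00836). In membrane it was higher for Gpi1 (0.34 ± 0.12, edgeR adjusted p = 0.0412) and lower for Rpl37 (−1.02, edgeR adjusted p = 0.00496). In differentiating cells 2 genes of the cell cortex and adhesion sites were lower in 8 of 8 matched pairs of libraries. Zyx, a focal adhesion protein, had a distal share of 5.15% to 22.9% (median 12.5%) in proliferating and 3.16% to 18.0% (median 9.28%) in differentiating libraries (log2 −0.60 ± 0.12, edgeR adjusted p = 2.03e-05). Marcks, an actin-binding substrate of protein kinase C, had 53.5% to 74.5% (median 60.2%) and 19.0% to 66.9% (median 50.4%), with a log2 difference of −0.92 ± 0.28 (edgeR adjusted p = 0.0129). Without the block and without the differentiating monosome libraries the log2 differences were −0.34 for Marcks, −0.35 for Zyx and 0.20 for Eef2, none of them called. The ranges of Zyx and Marcks overlapped between states.

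In the puromycin set, membrane and cytosol libraries of proliferating cells were compared over the 4 exposures. Here 9 close pairs were higher and 27 lower in membrane, 3.00% of them, against 10.7% of all pairs (8.72% higher, 2.0% lower) and 9.19%, 19.3% and 19.0% in the 3 wider classes. The median log2 difference of close pairs was 0.02 against 0.24 over all pairs. TMM scaling moved these medians to −0.32 and −0.10 and the calls to 2 higher and 82 lower. Both medians fell, and the share of all pairs called with that scaling is not given here. The 2 and 82 calls therefore show the effect of the scaling and are not a result about close pairs. The 4 exposures stood in for replicates, since each had 1 library per fraction.

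Of the 8 close pairs called by fraction in the gradient set and the 36 in the puromycin set, which shares no library with it, 2 were called in both with the same sign (25.0% and 5.56% of the lists). They were Id1 and Rps12. Both sets had counted toward the rule's 5% limit for the rarer site, so the 2 lists are not independent. In the gradient set the proximal share of Rps12 was 1.18% in cytosol and 10.0% in membrane, and that of Id1 7.09% and 2.19%. Rps12 was thus over that limit only in membrane and Id1 only in cytosol. In the puromycin set the distal share of Id1 was 90.4%, 84.1%, 88.8% and 94.7% in cytosol and 93.8%, 92.8%, 95.0% and 97.9% in membrane (untreated, then 0, 30 and 60 min). Membrane was higher at every exposure, and the log2 difference was 1.15 ± 0.17 (edgeR adjusted p = 1.15e-06; 0.279 when exposure was left out of the fit). In Rps12 it was 97.4%, 99.2%, 98.4% and 96.7% in cytosol and 48.9%, 66.0%, 77.7% and 75.7% in membrane. Every membrane library was below every cytosol library, and in the untreated one 252 of the pair's reads were proximal and 241 distal (log2 over the set −4.66 ± 0.31, edgeR adjusted p = 2.38e-14). The whole-fraction libraries, outside any test, had distal shares of 80.3% in membrane and 98.9% in cytosol at this gene.

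Other pairs were called in the puromycin set and not by fraction in the gradient set, which does not show that the 2 sets differ, as that difference was not tested. Syncrip, an hnRNP that binds mRNA, had sites 191 nt apart and distal shares of 44.7% to 61.1% in cytosol and 22.2% to 41.5% in membrane (log2 −1.41 ± 0.23, edgeR adjusted p = 1.56e-05). In the gradient set its log2 difference by fraction was 0.09 (adjusted p = 0.996). Eif4ebp1, the repressor of cap-dependent translation, had 79.8% to 88.0% in cytosol and 69.7% to 75.4% in membrane (log2 −0.89, edgeR adjusted p = 0.00146). Serf1 had 89.8% to 94.0% and 70.0% to 85.5% (−1.58 ± 0.40, edgeR adjusted p = 0.00554). The pairs that rose in membrane included Rabggtb, a subunit of the enzyme that adds lipid to Rab proteins, with 30.6% to 34.9% in cytosol and 47.0% to 52.9% in membrane (log2 1.04, edgeR adjusted p = 0.00683; 0.104 with TMM scaling). Marcks had 59.9% to 69.2% and 75.7% to 80.4% (log2 1.02, edgeR adjusted p = 0.0148, lost with TMM scaling, without a count filter or without 30 min, where it was at most 0.169), and Haghl 11.9% to 17.1% and 24.3% to 27.8% (log2 1.05, edgeR adjusted p = 0.000862). In all 6 pairs, named after their values were seen, the membrane and cytosol ranges were apart. Mtmr14, higher in membrane, and Mrpl35, lower in membrane, were called as well. Their calls were lost under 8 and 3 of 10 alternative settings.

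By function, close pairs were spread over all 19 gene lists that were looked up, and calls without the block fell in only 2 of them. Ribosomal protein genes had 13 close pairs among 28 pairs of any distance. Of the 13, 2 rose in differentiating cells (Rps12 and Rps27l, where 1.66% of all pairs rose), 1 fell in membrane (Rps12, where 0.324% of all pairs fell) and 0 were called by part. Their median log2 differences were 0.15, −0.27 and −0.12, against 0.08, 0.00 and −0.04 over all close pairs. Over pairs of any distance the medians were 0.15, 0.16 and 0.07. Regulators of muscle formation had 4 (Id1, Id2, Id3 and Mef2d), of which Id1 rose in membrane and fell in polysomes. No pair was called by state, fraction or part among 11 mitochondrial ribosomal protein genes, 11 cytoskeletal genes, 8 of protein folding and entry into the endoplasmic reticulum, 7 chromatin genes or 7 of the respiratory chain. Nor was one called among the 6 genes each of the cell cycle, lysosome, small GTPase, splicing and translation factor lists, or the 5 of the proteasome and ubiquitin. The lists of plasma membrane proteins (4), extracellular matrix (3), glycolysis (3), contractile proteins (1) and cytosolic chaperones (1) had 0 calls as well, as had the cleavage and polyadenylation factors. Over the 95 close pairs of these 17 lists, 5, 4 and 13 had an unadjusted p under 0.05 by state, fraction and part, and DESeq2 called 1 in each (Capza2, Mrps25 and Cpsf7). In the same order, 14.3%, 12.7% and 12.6% of all pairs and 6.91%, 5.66% and 6.91% of all close pairs had such a p. Tnnt2, a cardiac troponin T and the single contractile gene with a close pair, had sites 169 nt apart and a distal share of 91.1% over all libraries. Gapdh, the glycolytic dehydrogenase, had only 263 reads at its pair over the 26 libraries. Its level over all positions kept was also low, with gradient group means of 0.391 to 2.27 CPM, so its counts are uncertain.

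The cleavage and polyadenylation machinery itself had 4 close pairs, in Cpsf6, Cpsf7 and Nudt21 (subunits of cleavage factor I) and in Pabpn1 (the nuclear poly(A)-binding protein). None was called without the block. With it 2 were lower in polysomes. Pabpn1 had a distal share of 61.1% to 85.5% (median 72.3%) in monosomes and 39.3% to 80.5% (median 65.4%) in polysomes (log2 −0.82 ± 0.16, edgeR adjusted p = 2.56e-05). Cpsf7 had 24.7% to 57.6% (median 40.9%) and 19.5% to 36.2% (median 29.5%), with a log2 difference of −0.85 ± 0.22 (edgeR adjusted p = 0.00294). Both ranges overlapped.

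At the level of whole genes, some transcripts of this machinery were lower in differentiating cells. Of 21 genes tested, 8 fell and 0 rose (edgeR adjusted p under 0.05; Rbbp6 was higher at an unadjusted p of 0.0329), where 19.2% of the 11176 genes tested fell and 16.3% rose. Their median log2 change was −0.52 against −0.09 for all genes. Cstf2, the CstF subunit that binds the downstream element, had 18.1 ± 8.08 CPM in proliferating and 5.89 ± 2.72 CPM in differentiating libraries (SD, n = 8), a log2 change of −1.37 ± 0.25 after TMM scaling (edgeR adjusted p = 0.000935). Cpsf2 fell by 0.97 ± 0.17 (0.000696) and Cpsf6 by 0.53 ± 0.13 (0.00773) on the log2 scale, the latter from 125 ± 27.5 to 74.4 ± 12.8 CPM. Clp1, Cpsf3, Cpsf4, Cstf1 and Scaf8 also fell. Leaving out 1 library gave 4 to 8 such genes, the lowest count without proliferating cytosol polysome replicate 2. DESeq2 gave 2 higher and 7 lower, and the blocked fit 2 higher and 12 lower. The share was not tested against the other genes. In these bulk libraries fewer cells of a kind and less RNA per cell cannot be told apart.

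Distal shares differed more between replicate numbers than between the conditions. Over the 764 pairs with at least 50 reads per library, the mean distal share differed by a median of 4.05 percentage points between replicates numbered 1 and 2. It differed by 2.48 points between states, 2.48 between fractions and 2.30 between parts. A difference of over 10 points was found in 138 pairs (18.1%) by replicate number, 26 (3.40%) by state, 30 (3.93%) by fraction and 40 (5.24%) by part. The term for the replicate number itself, added after the data were seen, was called in 271 close pairs, 136 higher and 135 lower in replicate 2 (22.6%, against 22.4% of all pairs, 12.2% higher and 10.2% lower). That share lay near the background and was 17.6% for pairs 25 to 49 nt apart, 21.8% at 50 to 99 nt, 25.8% at 100 to 149 nt and 27.5% at 150 to 199 nt.

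**Figure D4:**
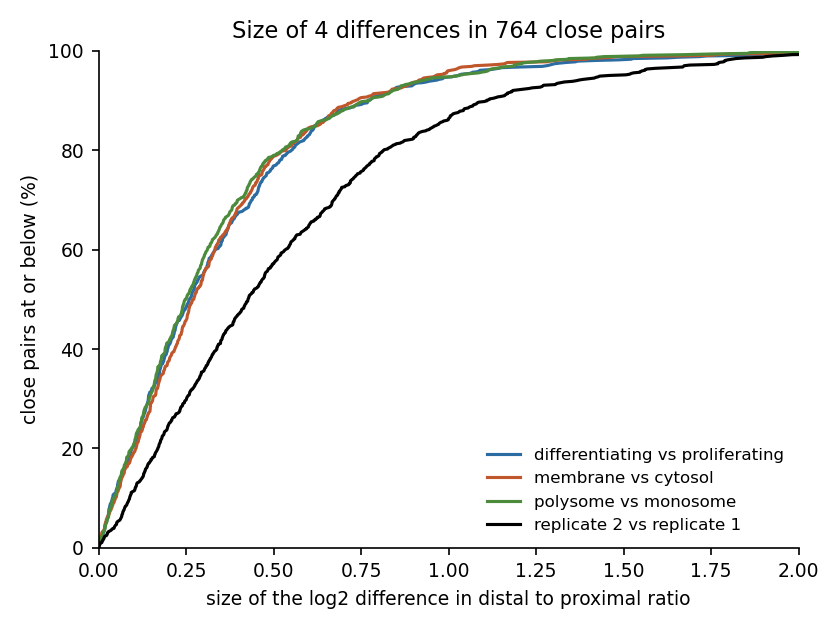
Cumulative share (percent) of the 764 close pairs with at least 50 reads per gradient library, by size of the log2 difference in distal-to-proximal ratio. Curves are for state, fraction, part and replicate number. The median size is 0.43 for the replicate number, 0.26 for state, 0.27 for fraction and 0.25 for part.

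Examples chosen after their values were seen show the size of these differences. In Ptma, which encodes prothymosin alpha and has sites 25 nt apart (chromosome 1, plus strand, 88427262 and 88427287), the distal share was 60.0% to 90.9% (median 84.8%) in the 8 libraries numbered 1 and 40.0% to 56.1% (median 47.3%) in the 8 numbered 2. The ranges were apart (log2 −2.58 ± 0.19, edgeR adjusted p = 1.04e-20). Serpinh1, the collagen chaperone (57 nt), had 23.5% to 47.4% and 10.7% to 18.7% (−1.67 ± 0.18, edgeR adjusted p = 1.17e-14). Pabpn1 (40 nt) had 75.5% to 85.5% and 39.3% to 69.1% (−1.67 ± 0.18, edgeR adjusted p = 2.41e-15), the same gene whose gradient parts differed only with the block. H2afz, a histone variant (90 nt), had 94.5% to 97.8% and 90.2% to 94.2% (lower in 8 of 8 matched pairs, edgeR adjusted p = 2e-07). Other genes moved the opposite way: Ctsl, cathepsin L (100 nt), had 64.8% to 78.2% in replicate 1 and 80.8% to 84.9% in replicate 2 (1.02 ± 0.14, edgeR adjusted p = 2.03e-10). Cpsf6 (186 nt) had 27.1% to 36.4% and 38.2% to 55.2% (0.59 ± 0.19, edgeR adjusted p = 0.0133). In each of these 6 genes no library of 1 number overlapped the other number, across both states, both fractions and both gradient parts. What the number marks is not stated in the labels, and its cause was not tested.

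**Figure D5:**
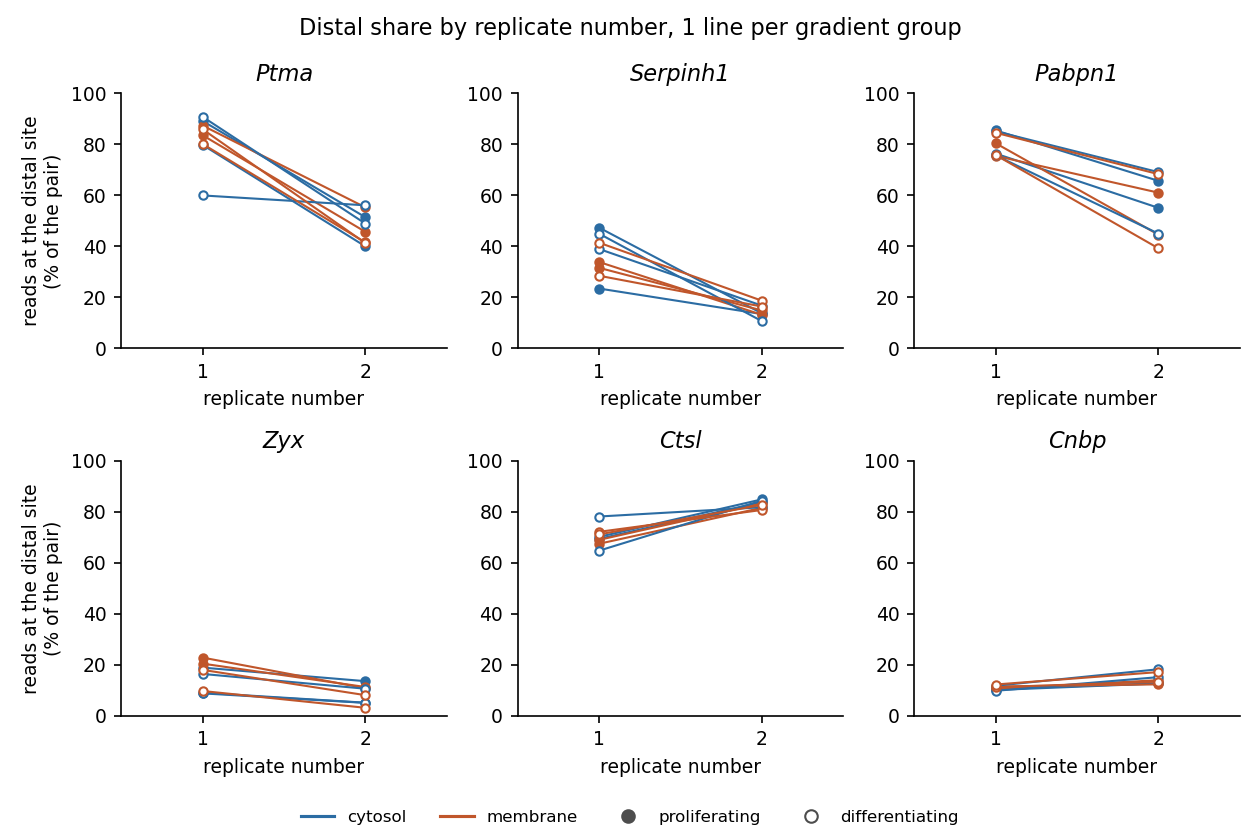
Distal share (percent) in each of the 16 gradient libraries for close pairs with large differences between replicates numbered 1 and 2; each point is 1 library. In Ptma the libraries numbered 1 lie at 60.0% to 90.9% and those numbered 2 at 40.0% to 56.1%.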

How the data were processed

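Read counts per pA site in 26 libraries of 3'READS+ were used as deposited by the authors, as whole-number counts per the file headers, with positions on mm9 per the submitters' processing notes. Those notes name cutadapt, Bowtie2 and STAR 2.5.2 without their roles. No normalization had been applied to the deposited counts. Of 125369 entries, 651 positions listed under several symbols (0.56% of reads) were dropped. An RNA-seq table was not used. Genome sequence around the sites was not used here. RefSeq's gene table, of another build, gave gene types only.

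Each pair was tested with edgeR 4.0.16 (R 4.3.3, robust quasi-likelihood), with proximal and distal reads as 2 columns per library, a term per library and a distal term per group. All 16 gradient libraries entered 1 fit, unblocked. The puromycin fit had distal terms for exposure and fraction. Gene totals were tested likewise with TMM scaling, and CPM values are scaled to all reads of the library in the table. P-values were adjusted by Benjamini-Hochberg over all 5250 pairs or 11176 genes. Intervals are 95% exact binomial and, like the limit for a count of 0 (3 reads), cover counting error only. On simulated pairs for the state comparison, 57 of 100 changes of log2 1 and 98 of 100 of log2 2 were recovered, with 9 false calls. For the puromycin comparison 19 and 91 of 100 were recovered. The simulated counts had a fixed dispersion of 0.05 and no effect of the replicate number, and the changed pairs averaged at least 50 reads per gradient library. The recovery therefore does not give the power for pairs with fewer reads or for data with a replicate effect.

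The replicate numbers were taken to pair the gradient libraries because their deviations from group means correlated over 764 close pairs: 0.262 to 0.532 for same-numbered libraries within a state and 0.207 to 0.463 across states. The block terms were centred, so a blocked state difference is the mean over both numbers.

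Named pairs were the 10 with most reads, up to 10 of largest change per comparison and direction (adjusted p under 0.05, mean of at least 50 reads per gradient library, same sign in both replicates), up to 3 per gene list by reads, up to 3 per interaction, and those nearest the limits. Clone names were passed over. The members and lists were chosen with earlier results of these data known. Alternatives were DESeq2 1.42.0, TMM scaling, no count filter, other distance and share limits, replicate blocks and leaving out libraries.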

Additional observations from a re-analysis of the deposited data

Results flagged for a closer look

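With the replicate block, 3 close pairs differed in 1 effect according to another factor by the test of that difference itself (edgeR, adjusted over 5250 pairs); none did without the block. In Rpl37a the effect of the gradient part differed between states by a log2 of 0.957 ± 0.22 (SE, adjusted p = 0.0108; 1.0 without the block). Its distal share was 15.2% to 17.1% in differentiating polysomes, 6.1% to 10.4% in proliferating polysomes and 6.9% to 10.5% in the monosome libraries of both states. In Il10rb (124 nt apart) the effect of the part differed between fractions by 2.72 ± 0.68 (adjusted p = 0.0143; 0.581 without the block), being −2.08 in cytosol and 0.64 in membrane. The cytosol polysome libraries, at 80.0% to 92.9% distal, had only 2 to 6 proximal reads each. In Rdbp (123 nt apart) it differed by −1.35 ± 0.37 (adjusted p = 0.0369; 1.0 without the block). There the distal share was 21.7% to 26.6% in cytosol polysomes and 8.5% to 16.8% in cytosol monosomes, and 15.6% to 22.5% and 11.8% to 26.8% in membrane.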

How the results depend on the processing

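Counts of close pairs called are given as they stood without the block and then under each setting. Except where stated above, the shares of all pairs called under these settings are not given here. The counts thus show only how the calls depend on the setting. By state, 4 became 62 with the replicate block within states, 45 with the block over both states, 10 with DESeq2, 2 with no count filter, 2 at 50 to 199 nt and 1 without the differentiating monosome libraries. By fraction, 8 became 41, 31, 15 and 4 in the same order of the first 4 settings, 5 under 100 nt, 5 with a rarer share of at least 10% and 3 without those monosome libraries. By part, 3 became 45, 38, 5 and 5, then 6 with TMM scaling and 1 without those libraries. For the difference of part between states, 0 became 1 with either form of the replicate block, and for fraction by part 2 within states and 1 over both. In the puromycin set, 36 became 21 with DESeq2, 84 with TMM scaling, 17 with no count filter, 21 with no exposure term and 22 under 100 nt. Leaving out 1 library at a time gave 2 to 5 calls by state, 2 to 5 by fraction, 1 to 3 by part and 0 to 0 for the 3 interactions. Leaving out 1 exposure gave 18 to 34 in the puromycin set, the fewest, 18 and 21, without 0 min and without 30 min. For genes of the cleavage machinery the count of 8 became 4 to 8, and 14 with the replicate block. The cause was not tested, beyond the fewer samples or pairs that some settings leave. A lone library left in a group is assumed to vary like the others. The median close pair had 2567 reads over all 26 libraries, so small shares at their rarer site were not resolved in single libraries.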
